A study of Mus musculus with 15 samples.

Results

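The macrophage migration inhibitory factor system was examined in RNA-seq of mouse mammary tumors and glands through 5 genes: the ligands Mif and Ddt, the receptor genes Cd74 and Cd44, and Cops5, whose protein binds MIF inside the cell. The genes were chosen by their symbols with earlier results of these data known, and all 5 were found among the 51826 genes of the tables. The study had already reported high Mif in TRIM24-driven tumors by RNA-seq and qRT-PCR, so the Mif result here is not independent of that report. Values are in TPM, transcript abundance scaled to a fixed total per library, for 15 libraries of 13 mice. The Trim24COE group holds females in which an MMTV-Cre transgene, active in mammary epithelium, removes a stop cassette in front of Flag-tagged mouse Trim24, itself inserted as a single copy. Tumors 64, 567 and 897 are the 3 metaplastic carcinosarcomas of this group, and tumors 89, 273_5 and 3956 its 3 carcinomas. The controls are 4 undiseased mammary glands of mice with Cre alone (133, 392, 417_3 and 517_3), so the Cre is shared by both groups and only the tumors carry the Trim24 cassette. The non-TRIM24 group holds 3 carcinomas that arose spontaneously (219, FVB001 and FVB002), and their genotype is given as unknown. The sample labels give the strain as FVB, the description of the series gives FVB/129 for the control mice, and the labels give no age. Sequencing batch 2 consists of the 3 non-TRIM24 tumors and a repeat library each of gland 133 and tumor 3956, and all first libraries of the other groups are from batch 1. The tumor class is that of the sample labels, and the study's pathologists gave differing calls for tumors 89, 567 and 3956.

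MIF is a small cytokine that leaves the cell without a signal peptide, and DDT, or MIF-2, is its homolog from a neighboring gene. Both bind CD74, the invariant chain that chaperones MHC class II molecules in antigen-presenting cells, which passes the signal on together with the hyaluronan receptor CD44. The chemokine receptors CXCR2, CXCR4 and ACKR3 also bind MIF, while COPS5 (JAB1) is the catalytic subunit of the COP9 signalosome, the complex that removes NEDD8 from cullin ubiquitin ligases.

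Trim24 RNA did not separate Trim24COE tumors from control glands: it ranged from 10.6 to 24.1 TPM in the 6 Trim24COE tumors and from 14.5 to 22.4 TPM in the 4 control glands (log2 fold change -0.24, adjusted p = 0.557, limma). In the 3 non-TRIM24 tumors, all from batch 2, it was at 5.34 to 10.04 TPM, below both of these ranges, which are from batch 1. Trim24 was also lower in both batch 2 repeats: 11.1 TPM against 14.54 for gland 133 and 11.49 TPM against 16.45 for tumor 3956. No fitted comparison with the non-TRIM24 tumors passed, among them that with control glands (-0.63, adjusted p = 0.262, limma). Between 21060 and 34209 genes were above 0 TPM in a library. The epithelial gene Epcam was at 153 to 661 TPM in the control glands, 281 to 1275 TPM in the Trim24COE carcinomas and 2.73 to 36.4 TPM in the metaplastic carcinosarcomas. Adipocyte RNA differed within groups. The adipocyte hormone Adipoq was at 1718 and 1946 TPM in control glands 133 and 392 but at 10.2 and 10.8 TPM in glands 417_3 and 517_3. It was at 4315 and 1525 TPM in non-TRIM24 tumors FVB001 and FVB002 and at 3.31 TPM in tumor 219, against 1.27 to 68.2 TPM in the Trim24COE tumors.

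Mif, Cd44 and Cops5 were higher in every Trim24COE tumor than in every control gland, the fitted difference being smallest for Cops5. The share of all genes with such full separation was not computed. With a model across all genes (limma on log2(TPM + 1), two-sided, Benjamini-Hochberg adjustment), 3 of the 5 genes passed the adjusted p threshold of 0.05, beside 17.1% of the 15196 genes tested. Cd74 and Ddt did not pass. The median log2 fold change of the 5 genes was 0.94, and that of all genes tested was -0.04. All fold changes given are on the log2(TPM + 1) scale.

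**Figure D1:**
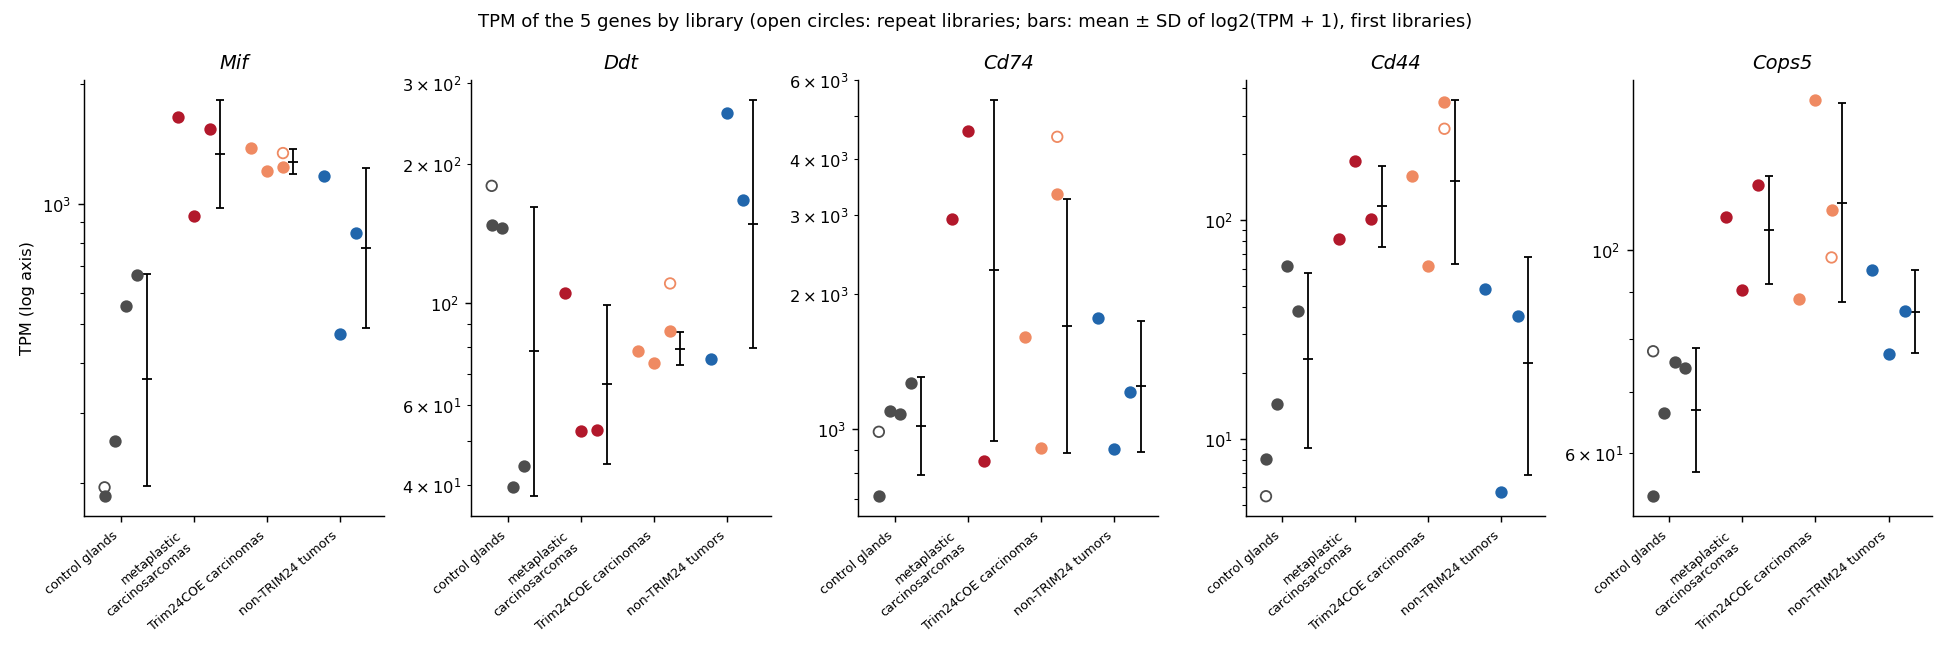
TPM of Mif, Ddt, Cd74, Cd44 and Cops5 (log axes) in each library by group, with filled circles for first libraries, open circles for repeat libraries, and bars at the mean ± SD of log2(TPM + 1) over first libraries. Mif was at 932 to 1654 TPM in the 6 Trim24COE tumors, above the 186 to 665 TPM of the 4 control glands, whereas Ddt and Cd74 overlapped between these groups.

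Mif, the principal ligand, was at 1654, 932 and 1543 TPM in metaplastic carcinosarcomas 64, 567 and 897. In carcinomas 89, 273_5 and 3956 it was at 1384, 1210 and 1239 TPM. Control glands 133, 392, 417_3 and 517_3 gave 186, 255, 555 and 665 TPM. All 6 tumors therefore lay above all 4 glands, and within the glands the 2 with high Adipoq held the lowest Mif. The log2 fold change was 1.84 ± 0.36 (SE; 6 tumors, 4 glands), a 3.58-fold difference, with an adjusted p of 0.00651 by limma. An exact permutation test over mice (two-sided, 210 regroupings) gave p = 0.00476, the smallest value this design allows. The repeat libraries differed little from the first: 1341 TPM against 1239 for tumor 3956 and 195 TPM against 186 for gland 133.

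Adipocyte content moved with this difference. The summed TPM of 10 adipocyte markers ranged from 172 to 1478 in the Trim24COE tumors and from 1943 to 38925 in the control glands, and no marker was at 0 throughout either group. With the mean log2 level of these markers as a covariate, the Mif difference was 1.01 with an adjusted p of 0.0922 by limma, and 0 of the 5 genes passed, beside 6.77% of all genes. Of the 10 markers 4 fell and 0 rose without the covariate, beside 17.1% of all genes called, with a median log2 fold change of -3.73, so that the covariate and the group were partly confounded. The epithelial markers moved within the glands too, their summed TPM being 932 and 1608 in glands 133 and 392 and 6594 and 6995 in glands 417_3 and 517_3, against 385 to 6464 in the tumors. Of the 10 epithelial markers 0 passed in either direction by limma over all Trim24COE tumors. In metaplastic carcinosarcomas alone 6 fell and 0 rose (median -3.96), beside 23.0% of all genes called. In the carcinomas 0 passed (median 0.01), beside 3.50% of all genes. The part of these markers in the Mif level was not tested. In bulk tissue, fewer cells of a type and less RNA per cell cannot be told apart.

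Ddt, the homolog of Mif, followed another pattern. It was at 105, 52.5 and 52.9 TPM in metaplastic carcinosarcomas 64, 567 and 897, and at 78.3, 73.7 and 86.8 TPM in carcinomas 89, 273_5 and 3956. Control glands 133, 392, 417_3 and 517_3 gave 148, 145, 39.8 and 44.0 TPM. The tumors thus fell between the 2 pairs of glands, and the glands with high Adipoq were the ones with high Ddt and low Mif. No difference between tumors and glands was detected (log2 fold change -0.11 ± 0.41, adjusted p = 0.882, limma), and the 95% confidence interval ran from -1.01 to 0.79. The sign turned with the adipocyte covariate (0.83, adjusted p = 0.219) and without gland 133 (0.19) or 392 (0.18).

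The ratio of Mif to Ddt put both ligands on 1 scale within each library. It was 1.26 and 1.76 in control glands 133 and 392 and 13.97 and 15.1 in glands 417_3 and 517_3. The first libraries of the 6 Trim24COE tumors lay between 14.3 and 29.2, with the highest ratio in metaplastic carcinosarcoma 897. The repeat of tumor 3956 gave 12.2. Among non-TRIM24 tumors the ratio was 15.5 in 219, 1.83 in FVB001 and 5.04 in FVB002. With the repeat of gland 133 at 1.09, the 5 libraries with the lowest ratios were the 5 with the highest Adipoq, at 1525 to 4315 TPM, and this relation was not tested.

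Mif and Ddt lie on the minus strand of mouse chromosome 10 (GRCm38), at 75859353 to 75860240 and 75771230 to 75773414, with their starts 86.8 kb apart. Their promoters are shown because these neighboring genes of 1 family had unlike profiles. The windows reach upstream from the RefSeq gene start (GRCm38.p6, minus strand), Mif at chr10:75860278-75860527 and Ddt at chr10:75773415-75773624, the latter without the 40 bases that GENCODE places inside the gene. They were searched on both strands for ACGTG (core of the hypoxia response element), GGGCGG (Sp1 box) and TGACG (core of the cyclic AMP response element), and matches are in capitals.
Mif promoter: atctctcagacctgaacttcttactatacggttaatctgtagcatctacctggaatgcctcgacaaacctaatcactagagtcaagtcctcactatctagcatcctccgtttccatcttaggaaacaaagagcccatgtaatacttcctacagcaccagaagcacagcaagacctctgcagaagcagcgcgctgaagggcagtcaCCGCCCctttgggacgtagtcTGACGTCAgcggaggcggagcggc
Ddt promoter: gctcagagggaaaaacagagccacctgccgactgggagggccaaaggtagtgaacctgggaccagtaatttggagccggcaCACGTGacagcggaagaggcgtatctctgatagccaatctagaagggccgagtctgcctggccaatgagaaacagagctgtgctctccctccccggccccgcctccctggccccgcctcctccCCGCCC
The Mif window held 1 Sp1 box and 2 overlapping response element cores on opposite strands, 24 to 17 bases before the start, and no ACGTG. The Ddt window held 1 Sp1 box and 2 overlapping ACGTG matches on opposite strands, and no TGACG. Across the 32851 promoter windows in the reference table, 16.6% held ACGTG, 32.7% GGGCGG and 17.8% TGACG. The GC content was 51.2% for Mif and 62.9% for Ddt, against a median of 52.4% over all windows. The window of Cd44, on chromosome 2, held 1 ACGTG match and neither of the others. These are matches of letters only and were not tested against the expression values.

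Of the other genes with a start within 100 kb of the Mif start, 9 of 17 were expressed enough to be tested, of which 0 rose and 2 fell in Trim24COE tumors. Gstt2, a theta-class glutathione transferase 22.8 kb away, was at 5.20 to 22.3 TPM in tumors and 45.9 to 101 TPM in glands (log2 fold change -2.24, adjusted p = 0.00515, limma). Derl3, an endoplasmic reticulum degradation factor 33.2 kb away on the other side, was at 0.57 to 3.22 TPM in tumors and 3.31 to 11.5 TPM in glands (-1.89, adjusted p = 0.00805). The chromatin remodeling subunit Smarcb1 differed by 0.37 (adjusted p = 0.293). The 2 of 9 neighbors called are near the 17.1% of all genes called.

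**Figure D2:**
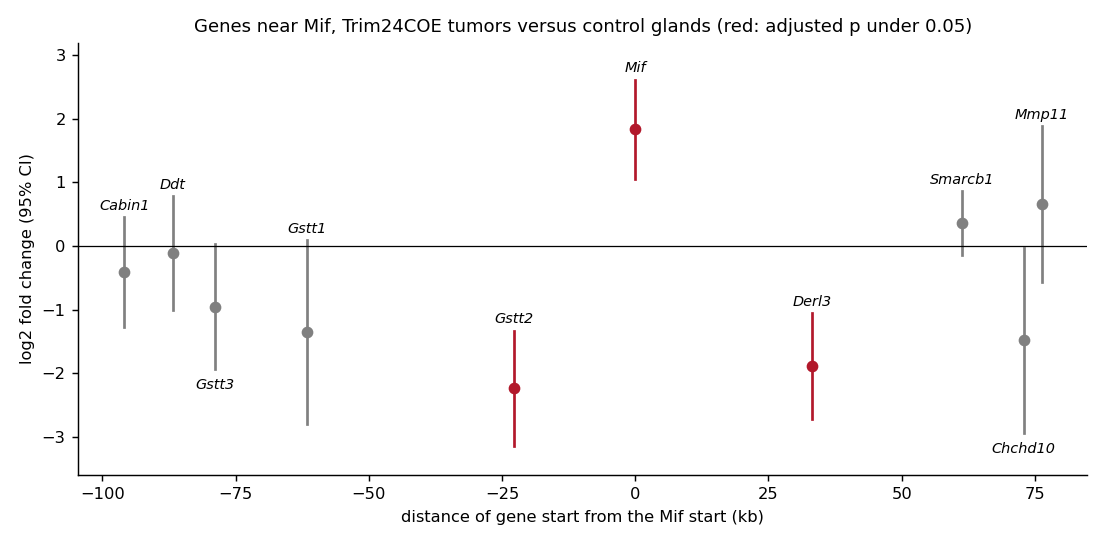
Log2 fold change between 6 Trim24COE tumors and 4 control glands, with 95% confidence intervals, for tested genes against the distance of their start from the Mif start in kb (red: adjusted p under 0.05). Mif stood at 1.84, and its neighbors Gstt2 and Derl3 stood at -2.24 and -1.89.

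Mif has close copies in the genome. In GENCODE M21, 6 processed pseudogenes matched its longest transcript with at least 90% identity over at least 200 bases, up to 99.1% for Gm10169. They were estimated at 2.17 TPM at most in any library, so little of the signal was assigned to them, although reads they share with Mif cannot be told apart. For Ddt, the overlapping gene Gm20441 matched and reached 0.81 TPM, and no such copy was found for Cd74, Cd44 or Cops5.

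Cd74 had the highest TPM of the receptor genes in every library. It was at 2943, 4613 and 850 TPM in metaplastic carcinosarcomas 64, 567 and 897. Carcinomas 89, 273_5 and 3956 gave 1605, 910 and 3341 TPM, and control glands 133, 392, 417_3 and 517_3 gave 709, 1098, 1083 and 1268 TPM. Tumors 897 and 273_5 lay within the range of the glands, and the other 4 tumors lay above it. The difference did not pass (log2 fold change 0.94 ± 0.49, adjusted p = 0.202, limma; exact permutation p = 0.124), with a 95% confidence interval from -0.12 to 2.01. In the repeat libraries Cd74 was 1.34 times the first value for tumor 3956 and 1.39 times for gland 133.

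The class II chains varied together with Cd74, their chaperone. H2-Ab1 was the gene most correlated with it, both over the 10 first libraries of batch 1 (Pearson r = 0.984) and over the 6 Trim24COE tumors (r = 0.996). The ratio of Cd74 to the sum of H2-Aa and H2-Ab1 stayed between 0.862 and 1.43 in first libraries of batch 1 and between 1.16 and 1.3 in the non-TRIM24 tumors. Of 12 MHC class II genes and regulators tested, 0 rose and 2 fell in Trim24COE tumors, a share near the 17.1% of all genes called. These were H2-Oa (-1.36, adjusted p = 0.0304, limma) and H2-Ob (-1.08, adjusted p = 0.0304), the chains of the peptide-exchange modulator found chiefly in B cells. H2-Aa (0.88, adjusted p = 0.118) and H2-Ab1 (0.94, adjusted p = 0.178) did not pass. H2-Eb1, named after its values were seen, was at 4.50 TPM in tumor 273_5 and at 245 to 1189 TPM in the other 5 tumors, and class II genes differ in sequence between strains, whose effect on these estimates was not tested.

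Markers of antigen-presenting cells were followed beside Cd74. In this comparison 17.1% of all genes were called. Of 11 macrophage markers, 9 rose and 0 fell, with a median log2 fold change of 2.40 against -0.04 for all genes, and their summed TPM ranged from 2432 to 7624 in Trim24COE tumors and from 591 to 1523 in control glands. The sum and Cd74 were 7624 and 4613 TPM in tumor 567, 7462 and 3341 TPM in 3956, and 5355 and 2943 TPM in 64. They were 2432 and 1605 TPM in tumor 89 and 2493 and 910 TPM in 273_5. Tumor 897 had a sum of 5069 and the lowest Cd74 of the 6 tumors, at 850 TPM. For dendritic cells, 6 of 8 markers were tested and 1, Zbtb46, fell, with sums of 18.7 to 71.8 in tumors and 19.5 to 31.5 in glands. No marker of either list was at 0 in all libraries of either group, and their part in the Cd74 level was not tested. Among other marker lists, 1 of 8 T cell and 3 of 6 endothelial markers fell, while no erythroid or skeletal muscle marker passed by limma, nor did the pan-leukocyte gene Ptprc (19.8 to 39.2 TPM in tumors, 11.4 to 24.0 TPM in glands).

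**Figure D3:**
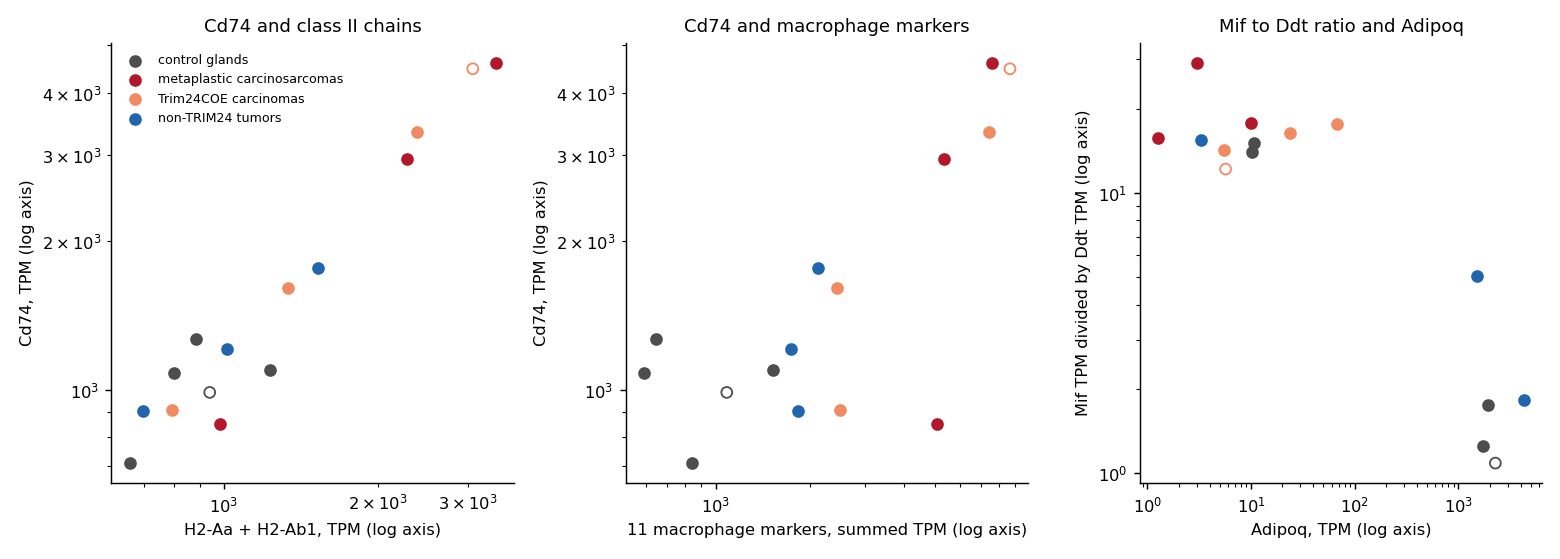
Left and center, Cd74 TPM against the summed TPM of H2-Aa and H2-Ab1 and against that of 11 macrophage markers; right, the Mif to Ddt TPM ratio against Adipoq TPM, each point being a library (log axes; open circles, repeat libraries). Cd74 followed the class II chains across groups. Among Trim24COE first libraries, tumor 567 had the highest Cd74 (4613 TPM) and the highest macrophage sum (7624). Tumor 897 combined 850 TPM of Cd74 with a macrophage sum of 5069. The 5 libraries with Adipoq of 1525 to 4315 TPM had Mif to Ddt ratios of 1.09 to 5.04.

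Among 6 proteases that act on CD74 or the invariant chain pathway, 3 rose and 0 fell in the Trim24COE tumors, beside 17.1% of all genes called. Their median was 1.04 against -0.04 for all genes. Cathepsin S (Ctss), which makes the last cut of the invariant chain in many antigen-presenting cells, was at 409 to 992 TPM in tumors and 59.2 to 129 TPM in glands (2.89 ± 0.29 SE, adjusted p = 0.000271, limma). Legumain (Lgmn) rose by 2.26 (adjusted p = 0.00115) and cathepsin L (Ctsl) by 1.28 (adjusted p = 0.0260). The tumors and glands did not overlap for these 3 genes, and the share of all genes without overlap was not computed. The macrophage markers rose in the same tumors, and their part in these levels was not tested.

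Cd44, the signaling partner of CD74, was at 82.1, 186 and 101 TPM in metaplastic carcinosarcomas 64, 567 and 897, and at 159, 61.6 and 346 TPM in carcinomas 89, 273_5 and 3956. Control glands 133, 392, 417_3 and 517_3 gave 8.09, 14.5, 61.5 and 38.2 TPM. The groups did not overlap, although narrowly: the lowest tumor, 273_5, stood at 61.59 TPM and the highest gland, 417_3, at 61.45 TPM. The log2 fold change was 2.46 ± 0.59 (SE), or 5.48-fold, with an adjusted p of 0.0173 (limma) and an exact permutation p of 0.00476. Without gland 392 it was 2.24 with an adjusted p of 0.0507, and with the adipocyte covariate 1.39 with an adjusted p of 0.237. Repeat libraries gave 0.756 and 0.675 times the first value for tumor 3956 and gland 133.

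Genes of CD44 ligands, anchors and processing enzymes were tested beside it. Of 15 tested among 16, 5 rose and 1 fell, with a median of 0.56, beside 17.1% of all genes called and a median of -0.04 for all genes. Spp1, the CD44 ligand osteopontin, was at 1370 to 3130 TPM in tumors and 15.6 to 94.9 TPM in glands (5.76 ± 0.42 SE, adjusted p = 0.000100, limma). The proteoglycan versican (Vcan) rose by 3.43 (adjusted p = 0.00297), the matrix metalloprotease Mmp9 by 4.29 (adjusted p = 0.0147) and moesin (Msn), which links CD44 to actin, by 1.97 (adjusted p = 0.0182). The fibroblast markers, a list of other cells that can carry CD44, had 3 of 7 members higher and 0 lower, with summed TPM of 194 to 5731 in tumors and 517 to 1189 in glands, and their part in the Cd44 level was not tested.

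Esrp1 and Esrp2, which direct epithelial splicing of Cd44, set the tumor classes apart. Esrp1 was at 0.19 to 1.55 TPM in the metaplastic carcinosarcomas and 21.5 to 49.9 TPM in the carcinomas (-4.50, adjusted p = 0.0130, limma), and Esrp2 was at 0.39 to 0.96 and 8.89 to 38.7 TPM (-3.59, adjusted p = 0.0385). Both genes met the 1 TPM filter through the carcinomas, and the size of their differences depends on the 1 TPM added before taking logs. Cd44 itself did not separate these classes. The gene-level tables hold no isoforms, so Cd44 splicing was not analysed here.

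The chemokine receptors that bind MIF differed among themselves. Cxcr2, a neutrophil receptor, was at 2.59, 2.52 and 6.59 TPM in metaplastic carcinosarcomas 64, 567 and 897 and at 19.6, 6.58 and 1.62 TPM in carcinomas 89, 273_5 and 3956. The control glands gave 1.11, 0.08, 0.39 and 0.10 TPM, all under the lowest tumor. Its log2 fold change was 2.09 ± 0.53 (adjusted p = 0.0209, limma), although its TPM stayed below that of Cd74 in every library. Cxcr2 met the 1 TPM filter through the tumors, and its gland median was 0.245 TPM. The size of its difference therefore depends on the 1 TPM added before taking logs. Cxcr4 (-0.09, adjusted p = 0.929) and Ackr3 (0.39, adjusted p = 0.553) did not pass, and Cxcr4 was at 90.9 and 80.5 TPM in glands 417_3 and 517_3 against 16.0 and 14.8 TPM in glands 133 and 392.

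Cops5 was at 109, 90.5 and 118 TPM in metaplastic carcinosarcomas 64, 567 and 897, and at 88.5, 146 and 111 TPM in carcinomas 89, 273_5 and 3956. Control glands gave 53.9, 66.5, 75.5 and 74.3 TPM, so that no gland reached the lowest tumor. The difference was smaller than for Mif and Cd44 (0.69 ± 0.20 SE, 1.62-fold, adjusted p = 0.0351, limma; exact permutation p = 0.00952). The call was less firm than the other two, since it did not pass in 11 of 18 alternative settings, over which adjusted p-values ran from 0.0296 to 0.257 and log2 fold changes from 0.48 to 0.75. It did not pass when any 1 of the 4 glands or of tumors 64, 273_5, 897 and 3956 was left out. For gland 133 the repeat library gave 77.6 TPM against 53.9 at first, above the range of the other glands.

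Among the 10 COP9 subunits, Cops5 and Cops7b rose and 0 fell, with a median log2 fold change of 0.47, and 2 of 10 is near the 17.1% of all genes called. Cops7b, a paralog of the subunit Cops7a, was at 12.95 to 25.1 TPM in tumors and 6.42 to 8.39 TPM in glands (1.04 ± 0.24 SE, adjusted p = 0.0135, limma). Gps1 (0.65, adjusted p = 0.0661), Cops4 (0.63, adjusted p = 0.0947) and Cops6 (0.61, adjusted p = 0.0947) did not pass. The remaining subunits had smaller differences: Cops2 0.21, Cops3 0.08, Cops7a 0.21, Cops8 0.34 and Cops9 0.26. In metaplastic carcinosarcomas against glands, Cops7b (1.01, adjusted p = 0.0246) and Gps1 (0.88, adjusted p = 0.0444) passed, while Cops5 did not.

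**Figure D4:**
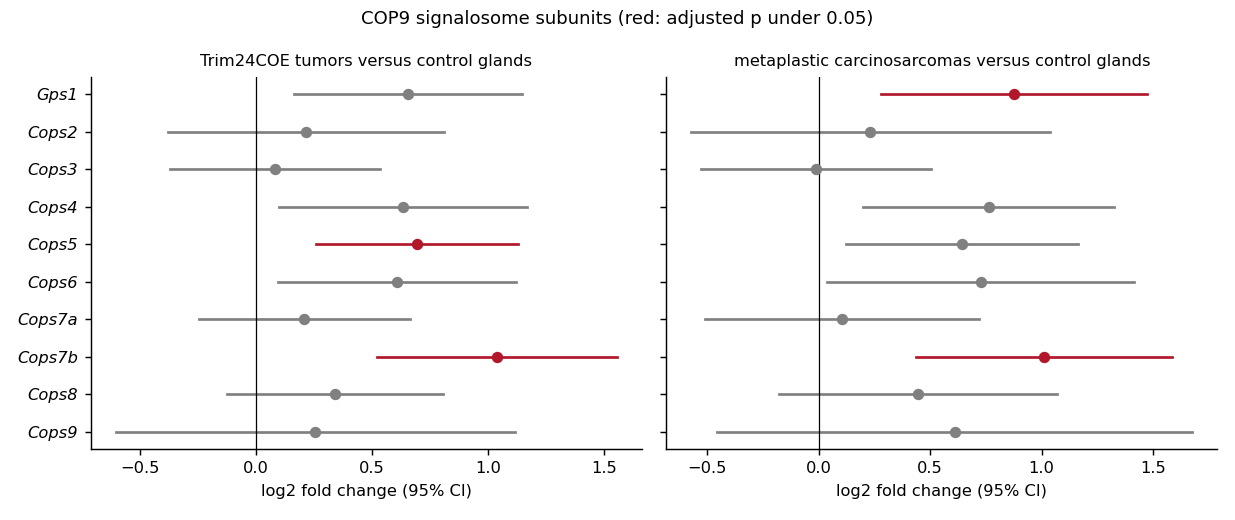
Log2 fold changes with 95% confidence intervals of the 10 COP9 signalosome subunits against control glands, for all Trim24COE tumors (left) and for metaplastic carcinosarcomas (right), with red marking an adjusted p under 0.05. Cops5 (0.69) and Cops7b (1.04) passed on the left, and Gps1 (0.88) and Cops7b (1.01) on the right.

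Proteins that export or bind MIF were listed apart. Of 9 tested, 2 rose and 0 fell in Trim24COE tumors, near the 17.1% of all genes called, and 5 rose and 0 fell in metaplastic carcinosarcomas, where 23.0% of all genes were called. The peroxiredoxin Prdx1 was at 789 to 1272 TPM in tumors and 361 to 533 TPM in glands (1.16 ± 0.21 SE, adjusted p = 0.00470, limma), and thioredoxin (Txn1) rose by 1.20 (adjusted p = 0.0131). Of 14 signaling kinases and targets, 0 rose and 1, the survival gene Bcl2, fell (-1.04, adjusted p = 0.0313, limma), a smaller share than the 17.1% of all genes called. Of 5 factors reported at the Mif promoter, 0 rose and 1, the glucocorticoid receptor gene Nr3c1, fell (-0.91, adjusted p = 0.0191, limma), which is near that share.

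When the tumor classes were compared with the glands separately, Mif and Cd44 passed in metaplastic carcinosarcomas, 2 of 5 genes beside 23.0% of all genes tested. Mif differed by 1.87 ± 0.49 (adjusted p = 0.0291, limma) and Cd44 by 2.27 ± 0.66 (adjusted p = 0.0409), with Cops5 at 0.64 (adjusted p = 0.0748, and 0.77 with an adjusted p of 0.0356 under median-ratio scaling), Cd74 at 1.15 (adjusted p = 0.170) and Ddt at -0.24 (adjusted p = 0.791). Both calls were lost with the adipocyte covariate (0.59 and 0.72), without tumor 64 or 567, and without gland 392, and Mif alone passed without gland 133 (1.55, adjusted p = 0.0426). Without tumor 897, the one with the lowest Cd74, the Cd74 difference was 1.86 with an adjusted p of 0.0258 and was the only call among the 5.

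In Trim24COE carcinomas against glands, 0 of the 5 genes passed by limma, beside 3.50% of all genes, and 3 had an unadjusted p under 0.05, as did 21.5% of all genes. The differences were 1.81 ± 0.46 for Mif (adjusted p = 0.0761), 2.64 ± 0.78 for Cd44 (adjusted p = 0.104) and 0.74 ± 0.26 for Cops5 (adjusted p = 0.154). Mif passed with median-ratio scaling (1.79, adjusted p = 0.0441) and with all batch 1 groups in 1 fit (1.81, adjusted p = 0.0352). They were close in size to those of the metaplastic carcinosarcomas. Exact permutation tests with 35 regroupings gave p = 0.0571 for Mif and Cd44 and 0.0286 for Cops5 in each class, where 0.0286 is the smallest possible.

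**Figure D5:**
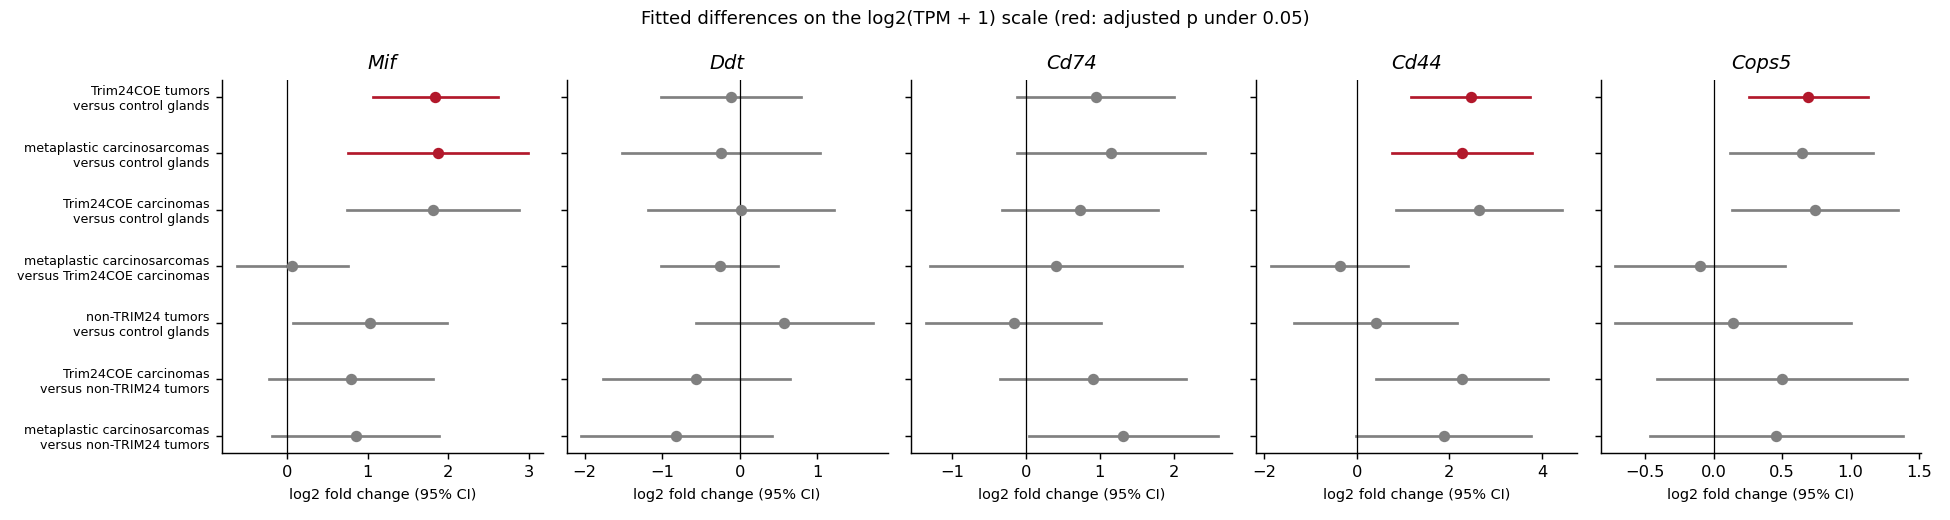
Log2 fold changes (log2(TPM + 1) scale) with 95% confidence intervals of the 5 genes in the 7 comparisons, with red marking an adjusted p under 0.05. Mif and Cd44 passed in Trim24COE tumors and in metaplastic carcinosarcomas against control glands, Cops5 passed in the former, and in the fits plotted Ddt and Cd74 passed in none of the 7.

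Between the tumor classes, 0 of 5 genes passed by limma, beside 0.698% of all genes, and 0 had an unadjusted p under 0.05. Mif differed by 0.07 with a 95% confidence interval from -0.63 to 0.76, and Cops5 by -0.10 with an interval from -0.72 to 0.52. The intervals were wider for Cd44, from -1.86 to 1.11, and for Cd74, from -1.29 to 2.12. Exact permutation tests with 20 regroupings gave p-values from 0.400 to 0.900, and this design cannot go below 0.1.

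The non-TRIM24 tumors were compared with a batch term carried by the 2 mice sequenced in both batches. Mif was at 1172, 472 and 845 TPM in tumors 219, FVB001 and FVB002, and Ddt was at 75.5, 258 and 168 TPM. Cd44 was at 48.6, 5.68 and 36.6 TPM, within the range of the first control gland libraries apart from FVB001, which lay below it. The repeat library of gland 133, from the same batch as FVB001, was lower still, at 5.46 TPM. Tumor 219, the one with low Adipoq, held the highest Mif and lowest Ddt of the 3, and FVB001, with the highest Adipoq, the reverse. Cd74 was at 1768, 905 and 1212 TPM and Cops5 at 95.01, 77.1 and 85.8 TPM.

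Against control glands, 0 of 5 genes passed in the non-TRIM24 tumors by limma, beside 0.709% of all genes, and 1 had an unadjusted p under 0.05, as did 19.3% of all genes. This was Mif, at 1.03 ± 0.45 (adjusted p = 0.233). Trim24COE carcinomas against non-TRIM24 tumors gave 0 of 5, beside 0.0298% of all genes, with 1 gene, Cd44, at an unadjusted p under 0.05 (2.27 ± 0.87, adjusted p = 0.223), as were 17.7% of all genes. Metaplastic carcinosarcomas against non-TRIM24 tumors gave 0 of 5, beside 4.80% of all genes, with Cd74 (1.32 ± 0.59, adjusted p = 0.191) under that unadjusted value, as were 24.4% of all genes, and Cd44 at 1.88 (adjusted p = 0.208). In each of these 3 comparisons 1 of 5 is near the share of all genes. For Mif these 2 comparisons gave 0.79 and 0.85, with intervals from -0.23 to 1.81 and from -0.18 to 1.88. Without tumor 3956, which leaves gland 133 as the only mouse in both batches, they were -0.16 and -0.11. That fit had no mouse term, so its batch term set the repeat of gland 133 against the mean of all first gland libraries. Gland 133 had the lowest Mif of the glands (186 TPM at first, 195 TPM in the repeat). These values therefore cannot separate batch from mouse.

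The order of the group means of log2(TPM + 1) was metaplastic carcinosarcomas, Trim24COE carcinomas, non-TRIM24 tumors and control glands for both Mif and Cd74. For Cops5 the 2 Trim24COE classes changed places. For Cd44 the order was Trim24COE carcinomas, metaplastic carcinosarcomas, control glands and non-TRIM24 tumors, and for Ddt it was non-TRIM24 tumors, Trim24COE carcinomas, control glands and metaplastic carcinosarcomas. Over first libraries, neighbors in these orders had overlapping ranges, except Trim24COE carcinomas and non-TRIM24 tumors for Mif, metaplastic carcinosarcomas and control glands for Cd44, and non-TRIM24 tumors and control glands for Cops5. For Cops5 the batch 2 repeat of gland 133, at 77.55 TPM, lay above tumor FVB001, at 77.1 TPM. The share of all genes without overlap was not computed. The levels of the non-TRIM24 tumors come from batch 2 and are not batch-corrected here. With the batch term, non-TRIM24 tumors against control glands stood at 0.40 for Cd44 and -0.17 for Cd74, opposite to these orders. Neither difference passed (adjusted p = 0.823 and 0.900, limma).

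The genes most like each of the 5 over the 10 first libraries of batch 1 were named by Pearson correlation of log2(TPM + 1) among 13523 genes with symbols. These libraries share the contrast of tumor and gland, so the values describe and do not test. For Mif they were Dlgap5 (r = 0.96), a mitotic spindle gene, Chic2, the chaperone Hsp90b1, the Ran-binding gene Ranbp1 and the spliceosomal gene Snrpd3 (r = 0.96). For Ddt they were the respiratory chain genes Ndufs7 (r = 0.96) and Uqcr11, the mitochondrial ribosomal gene Mrps15, Phlda3 and Kyat3 (r = 0.93). For Cd44, Ctsl came first (r = 0.98), before Arl4c, Myof, Vmp1 and Sept11, and for Cops5, Erh (r = 0.97), Rpf2, Denr, Hdac2 and Sarnp.

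Within the 6 Trim24COE tumors, which share the contrast of the tumor classes but not that of tumor and gland, the leading genes changed. Ctsl stayed among the first 5 for Cd44 (r = 0.99) and H2-Ab1 for Cd74, whereas none of the first 5 for Mif, Ddt or Cops5 recurred. The leading genes there were Scarna2 for Mif (r = 0.97), Klhl12 for Ddt (r = 0.99) and Glrx3 for Cops5 (r = 0.99), over 6 points each. Between the 5 genes themselves, Mif and Cops5 had r = 0.87 over the 10 libraries and 0.21 over the 6 tumors, and Mif and Cd44 had 0.85 and -0.40.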

How the data were processed

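Bulk RNA-seq of mammary tumors and glands was analysed from 2 deposited tables, 1 per sequencing batch. The authors estimated TPM (transcript abundance scaled to a fixed total per library) per gene with RSEM after alignment to GRCm38 with STAR, per the study's methods, whereas the labels also list TopHat, Cufflinks and a stranded total RNA kit without roles, so strand handling is not settled. Each library sums to a fixed total, so read depth is unknown and no counting interval is given. Groups came from the genotype and subtype labels. Log2(TPM + 1) was tested with limma 3.58.1 (R 4.3.3, trend, two-sided, Benjamini-Hochberg over all genes tested, threshold 0.05) on the first library of each mouse, with genes kept if at 1 TPM or more in at least n libraries, n being the size of the smaller group. For non-TRIM24 tumors, the fit held all 15 libraries, a batch term, a duplicate correlation for mouse estimated on every 10th gene, and genes at 1 TPM or more in 3 libraries. Comparisons with the same control glands share those samples. Single values were tested by exact permutation over mice (20 tests, unadjusted). The scripts were tested on simulated data. Each mouse is 1 replicate.

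The 5 genes and the 20 gene lists were chosen with earlier results of these data known. The result of 1 marker list is not reported here. Named genes were the 5 genes, the chemokine receptors, the COP9 subunits, up to 4 past-threshold genes of each other pathway list with the smallest adjusted p, the 5 most correlated genes per member, and genes with a start within 100 kb of Mif. Positions and near copies (blastn 2.17.0) came from GENCODE M21, and promoter windows from RefSeq, which matched 3 of the 5 genes, in an assembly of the build used by the authors. Alternatives were pseudocounts of 0.1 and 0.5 TPM, no filter, median-ratio and quantile scaling, an adipocyte covariate, 1 joint fit, means of repeat libraries, other batch handling, and leaving out each mouse.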

Additional observations from a re-analysis of the deposited data

How the results depend on the processing

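Of 620 single-gene values under alternatives, 557 kept direction and side of the threshold, 27 lost the call, 4 gained it and 32 changed sign, and for these the cause was not tested. Of the 5 genes, 3 passed in Trim24COE tumors against glands, but 0 with the adipocyte covariate and 1 to 3 without 1 mouse. In metaplastic carcinosarcomas 2 passed, but 0 without the low-value filter or with the covariate and 0 to 2 without 1 mouse, and 3 (Cops5 added) with median-ratio scaling; in Trim24COE carcinomas 0 passed, but 1 (Mif) with median-ratio scaling or 1 joint fit. Signs that turned belonged to differences that did not pass. For Ddt these were 0.83 and 1.14 with the covariate (all tumors and metaplastic), and -0.0039 and -0.085 with median-ratio and quantile scaling (carcinomas). Between tumor classes Mif was -0.0052 with quantile and Cops5 0.030 with median-ratio scaling, and Cd74 in non-TRIM24 tumors against glands was 0.17 with median-ratio scaling and 0.24 without a batch term. The median of all genes there was -0.27 and moved to -0.00100 with median-ratio scaling.

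Leaving out 1 mouse, Ddt ranged from -0.43 to 0.19 in all tumors, -0.57 to 0.062 in metaplastic carcinosarcomas and -0.30 to 0.32 in carcinomas. Between classes Mif ranged from -0.089 to 0.32, Cd74 from -0.10 to 1.12, Cd44 from -1.01 to 0.22 and Cops5 from -0.27 to 0.086. The fits with non-TRIM24 tumors that left out mouse 133 or 3956 had no duplicate correlation for mouse. They treated the libraries of the other repeated mouse as independent, and their batch term cannot be told apart from that mouse. The ranges that follow include these fits, so their ends do not show the influence of a mouse alone. For non-TRIM24 tumors against glands, Ddt ranged from -0.27 to 1.06, Cd74 from -1.28 to 0.34 and Cd44 from -1.33 to 1.84. Against non-TRIM24 tumors, carcinomas gave -0.16 to 1.09 for Mif, -1.04 to 0.23 for Ddt and -0.088 to 1.85 for Cd74, and metaplastic carcinosarcomas -0.11 to 1.15 for Mif and -1.30 to 0.033 for Ddt. No paired analysis was possible because the replicate numbers are mouse numbers, none of which occurs in more than 1 group. TPM keeps no depth, so the precision of single libraries could not be computed.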
